A study of Homo sapiens with 14 samples.

Results

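The genes PRRX1, TWIST1, TWIST2, SNAI1, SNAI2, ZEB1, ZEB2, SOX9, CD44 and VIM are used as factors and markers of the mesenchymal state of neuroblastoma cells, and they were taken by gene symbol from a count table of 61533 Ensembl genes. All 10 genes were found. Of these, 8 had enough reads to be tested among 16056 genes, while TWIST2 and SNAI1 did not and are described by their counts. Poly(A) RNA was sequenced from the SH-EP cell line, an adherent human neuroblastoma line of the mesenchymal type. One line was a single clone that expresses an n-Myc SPARK-ON construct at a level below that needed for phase separation, and the other was labelled n-Myc control and carries no SPARK-ON. Each was treated with lenalidomide, which serves to make n-Myc of the SPARK-ON cells condense without a change in its amount, or with the solvent DMSO. The labels write each treatment with the suffix ON and give no dose or duration. The 11 libraries were 3 of SPARK-ON cells with lenalidomide, 3 of SPARK-ON cells with DMSO, 2 of control cells with lenalidomide and 3 of control cells with DMSO. The labels number these libraries without saying that they came from separate cultures, so the p-values measure the spread between these samples, which may be technical. Since the SPARK-ON line is 1 clone, a difference between the lines cannot be told apart from a difference between clones.

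Neuroblastoma cells occur in an adrenergic state, which resembles sympathetic neurons, and in a mesenchymal state, which resembles migratory neural crest cells and fibroblasts. PRRX1 is a homeobox factor that can drive the mesenchymal state. TWIST1 and TWIST2 are basic helix-loop-helix (bHLH) factors that pair with E proteins. The SNAI and ZEB factors are zinc-finger repressors that bind E-boxes and silence epithelial genes such as the one for E-cadherin. SOX9 is a neural crest and cartilage factor, CD44 is the cell-surface receptor for hyaluronan, and VIM encodes vimentin, the main intermediate filament of mesenchymal cells.

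Promoter sequence from RefSeq (GRCh38.p14) was used for 6 of the 10 genes, as 12 windows of the 250 bases before an annotated start, 7 of them at ZEB1. No window was used for TWIST1, SNAI1, SNAI2 and SOX9. For SNAI2 this does not show that RefSeq lacks an entry. The windows of VIM and ZEB1 are printed because VIM was lower in the SPARK-ON line, whereas ZEB1 was not called different, and because both lie outside the exons of their gene. The window of VIM is chr10:17227991-17228240 and that of ZEB1 is chr10:31318167-31318416, both on the plus strand, and both are written 5′ to 3′. Capitals mark the GC box (GGGCGG or CCGCCC) and, in ZEB1, also the E-box of the SNAI and ZEB type (CAGGTG or CACCTG).
VIM: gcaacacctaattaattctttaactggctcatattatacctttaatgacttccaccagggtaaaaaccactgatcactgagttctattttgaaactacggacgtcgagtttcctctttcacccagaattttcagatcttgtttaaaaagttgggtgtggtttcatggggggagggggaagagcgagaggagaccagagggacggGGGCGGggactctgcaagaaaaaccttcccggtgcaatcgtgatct
ZEB1: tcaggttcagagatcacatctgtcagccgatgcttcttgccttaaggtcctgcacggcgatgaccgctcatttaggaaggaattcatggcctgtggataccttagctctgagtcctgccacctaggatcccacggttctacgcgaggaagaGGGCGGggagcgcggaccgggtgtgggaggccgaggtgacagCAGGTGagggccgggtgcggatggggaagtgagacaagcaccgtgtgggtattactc
The GC box starts 46 bases before the start of VIM and 99 bases before that of ZEB1, where the E-box follows at 57 bases. In these 2 windows no matches overlapped. Another ZEB1 window outside the exons, chr10:31319518-31319767, is not printed. It held 3 matches of the GC box and 0 of this E-box. The canonical E-box of MYC proteins, CACGTG, was in 0 of the 12 windows, against 6.35% of the 35116 RefSeq windows of the same length. The SNAI and ZEB type of E-box was in 2 of the 12 windows, both at ZEB1, against 17.5% of all windows. The AP-1 letters TGAGTCA or TGACTCA were in 0 of the 12, against 4.20% of all, and the GC box was in 8 of the 12, at TWIST2, VIM, CD44 and ZEB1, against 42.6% of all. Both strands were searched. A match describes letters in the window only.

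Total counts per library ran from 6614671 to 21511684, and the shallowest was SPARK-ON lenalidomide replicate 3. That library and control DMSO replicate 1 stood apart from the rest on principal components of all genes, so results are also given without both. Levels are given as CPM, the read count relative to the library size after TMM scaling, which adjusts for composition. MYCN, the gene of n-Myc, was at 2277 ± 109 CPM (SD, n = 3) in SPARK-ON DMSO libraries and at 2426 ± 292 CPM (n = 3) in control DMSO libraries, and it was not called different in any comparison (log2 change of SPARK-ON over control of -0.09, edgeR adjusted p = 0.404). Of 18 adrenergic factors and markers, PHOX2A, ISL1, SOX11 and CHGA were among those with 0 reads in all 11 libraries, and TH and DBH had 3 reads each in total. Among 13 markers of Schwann, endothelial, blood and immune cells, the summed level was 4.29 to 6.32 CPM in every group, and CD3E and HBB were at 0.

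The 8 tested genes differed between the lines for ZEB2, SOX9, CD44 and VIM, and none was called with lenalidomide. These 4 were lower in SPARK-ON cells than in control cells, in that order by 2.28-fold, 7.14-fold, 2.37-fold and 2.32-fold in DMSO, while PRRX1, TWIST1, SNAI2 and ZEB1 were not called. In DMSO, 4 of the 8 tested genes passed an adjusted p of 0.05 (edgeR quasi-likelihood test, Benjamini-Hochberg over all genes), all 4 lower and 0 higher. Across all tested genes 41.6% were called in that comparison, 21.1% higher and 20.4% lower, so that differences between the lines were common. Under lenalidomide the same 4 genes were called lower and 0 higher. There 39.4% of all genes were called, 19.7% higher and 19.7% lower. The 2 comparisons share no library. The median log2 change of the 8 genes was -0.73 in DMSO and -0.69 under lenalidomide, beside 0.01 and 0.02 over all tested genes. Scaling by library size alone moved the median of all genes by 0.09 in DMSO and 0.11 under lenalidomide, and moved the share of calls that were higher from 50.9% to 62.6% in DMSO and from 50.0% to 62.8% under lenalidomide. Without both libraries that stood apart, 5 of the 8 were lower in DMSO and 5 under lenalidomide, PRRX1 being the added gene, against 43% and 43.2% of all genes called. The log2 changes in DMSO were then -1.34 for ZEB2, -2.89 for SOX9, -1.25 for CD44 and -1.13 for VIM. In these bulk samples fewer cells that express a gene and less RNA per cell cannot be told apart.

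**Figure D1:**
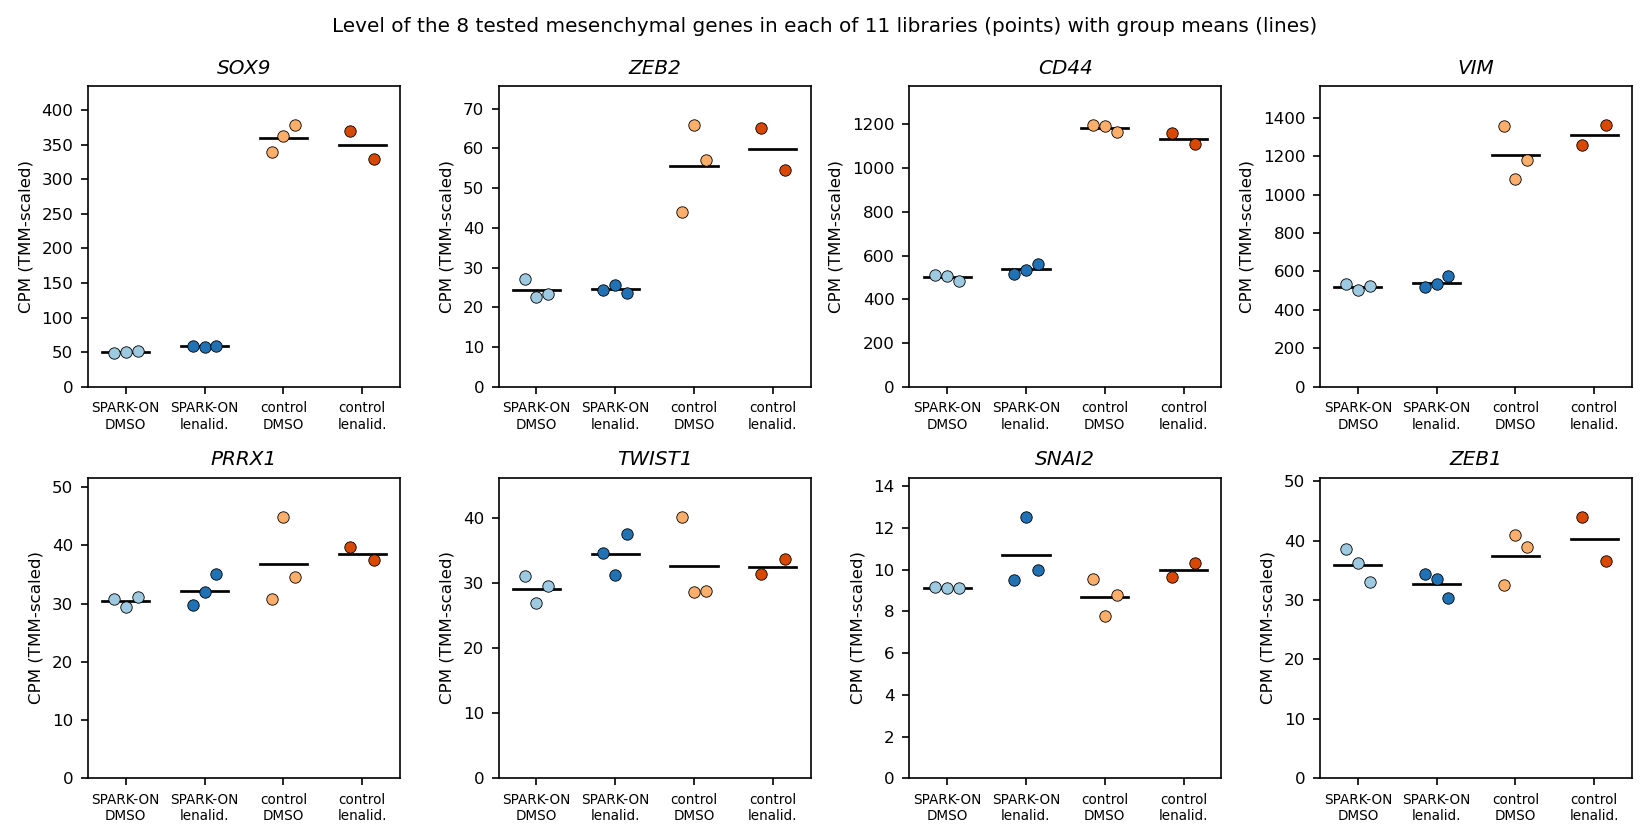
Levels of the 8 tested genes in CPM (vertical axes, from 0) in each of the 11 libraries, grouped by line and treatment; points are libraries and lines are group means. In the upper panels every SPARK-ON library lies below every control library, as for SOX9 at 48.8 to 59.1 CPM against 329 to 378 CPM; in the lower panels the lines overlap. Of all 16056 tested genes, 37.2% likewise did not overlap between the lines.

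PRRX1 (ENSG00000116132, chr1:170662728-170739419, plus strand, GENCODE 29 on GRCh38) was read at 30.7, 29.4 and 31.1 CPM in the SPARK-ON DMSO libraries and at 30.7, 44.9 and 34.6 CPM in the control DMSO libraries. Under lenalidomide it was at 29.7, 32.0 and 35.0 CPM in SPARK-ON cells and at 39.6 and 37.4 CPM in control cells. The DMSO groups overlapped, because control DMSO replicate 1 was as low as the SPARK-ON libraries, whereas the lenalidomide groups did not. How many of all tested genes likewise separated under lenalidomide was not counted. The log2 change of SPARK-ON over control was -0.27 in DMSO (SE 0.12, edgeR adjusted p = 0.0737) and -0.27 under lenalidomide (adjusted p = 0.121). Neither passed the threshold. This call turned on 1 library: without control DMSO replicate 1 the change in DMSO was -0.39 (edgeR adjusted p = 0.00362). Without control DMSO replicate 2 it was -0.10 (adjusted p = 0.456). Without both libraries that stood apart it was -0.39 in DMSO (edgeR adjusted p = 0.00481) and -0.32 under lenalidomide (adjusted p = 0.0321).

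Of the TWIST pair, only TWIST1 was detected. TWIST2 (ENSG00000233608, chr2:238848032-238910543, plus strand) had 0 reads in each library, which allows at most 0.143 to 0.441 CPM by the limit of 3 counts, for counting error only. TWIST1 (ENSG00000122691, chr7:19020991-19117672, minus strand) was at 31.1, 26.9 and 29.6 CPM in SPARK-ON DMSO libraries and at 40.3, 28.7 and 28.9 CPM in control DMSO libraries. The high value is that of control DMSO replicate 1, and the groups overlapped. Under lenalidomide TWIST1 was at 34.7, 31.3 and 37.7 CPM in SPARK-ON cells and at 31.4 and 33.7 CPM in control cells, again with overlap. The log2 change between the lines was -0.16 in DMSO (95% interval -0.42 to 0.10, edgeR adjusted p = 0.324) and 0.07 under lenalidomide (-0.22 to 0.37, adjusted p = 0.707). Both intervals include no change, and a difference anywhere within them is compatible with these libraries.

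The SNAI pair was low. SNAI1 (ENSG00000124216, chr20:49982999-49988886, plus strand), the archetypal repressor of E-cadherin, had 0 to 10 reads per library and was at or below 0.735 CPM. Its largest count came from control DMSO replicate 1 and its largest CPM from SPARK-ON lenalidomide replicate 3, the 2 libraries that stood apart. SNAI2 (ENSG00000019549, chr8:48917604-48921740, minus strand), also called SLUG, was at 9.18, 9.11 and 9.10 CPM in SPARK-ON DMSO libraries and at 9.55, 7.79 and 8.79 CPM in control DMSO libraries. The groups overlapped, and the SPARK-ON libraries lay close together. Under lenalidomide SNAI2 ranged from 9.51 to 12.5 CPM over the 3 libraries of SPARK-ON cells and was at 9.67 and 10.3 CPM in control cells. Its log2 change between the lines was 0.07 in DMSO (95% interval -0.23 to 0.36, edgeR adjusted p = 0.749) and 0.10 under lenalidomide (-0.23 to 0.44, adjusted p = 0.644).

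The ZEB pair split by line. ZEB1 (ENSG00000148516, chr10:31318495-31529814, plus strand) was at 38.5, 36.2 and 33.0 CPM in SPARK-ON DMSO libraries and at 32.5, 40.9 and 38.8 CPM in control DMSO libraries, with overlap. ZEB2 (ENSG00000169554, chr2:144364364-144524583, minus strand) was at 27.1, 22.6 and 23.4 CPM in the first and at 44.0, 65.8 and 57.1 CPM in the second. Under lenalidomide ZEB2 was at 24.5, 25.6 and 23.5 CPM in SPARK-ON cells and at 65.2 and 54.4 CPM in control cells. Every SPARK-ON value of ZEB2 was below every control value. The log2 change of ZEB2 was -1.19 in DMSO (SE 0.13, edgeR adjusted p = 5.00e-07) and -1.28 under lenalidomide (SE 0.14, adjusted p = 9.53e-07). That of ZEB1 was -0.06 in DMSO (95% interval -0.28 to 0.16, edgeR adjusted p = 0.686) and -0.29 under lenalidomide (-0.54 to -0.04, adjusted p = 0.0645). Under lenalidomide ZEB1 stood at 34.4, 33.5 and 30.3 CPM in SPARK-ON cells and at 44.0 and 36.6 CPM in control cells. These small groups did not overlap, but how many of all tested genes likewise separated there was not counted. It was called lower there when control lenalidomide replicate 2 was left out (-0.42, edgeR adjusted p = 0.0311) and when only the lenalidomide libraries were fitted (-0.28, adjusted p = 0.0448).

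The ratio within the pair needs no scaling between libraries. ZEB2 took 38.5% to 43.7% of the reads counted for ZEB1 plus ZEB2 in the 6 SPARK-ON libraries and 57.5% to 61.7% in the 5 control libraries. The means were 41.6% ± 1.9 (SD, n = 6) and 59.6% ± 1.5 (SD, n = 5), a difference of -18.0 percentage points. A two-sided exact permutation test over libraries, with the treatments pooled, gave p = 0.00216, the smallest that its 462 assignments allow. This test was not planned, and it uses the same reads in which ZEB2 already separated the lines, so it is no independent evidence. Without both libraries that stood apart the difference was -19.0 points (two-sided exact permutation p = 0.00794, with 126 assignments). ZEB2 was thus the minor member of the pair by reads in SPARK-ON cells and the major one in control cells. Reads per gene depend on transcript length, so this share compares the lines and not the molar amounts of both messages.

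**Figure D2:**
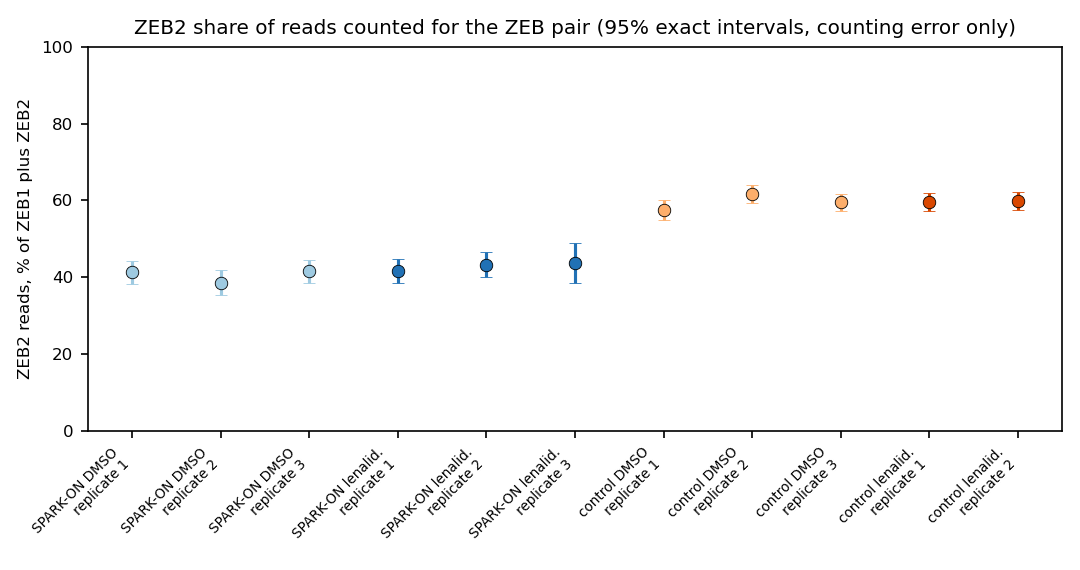
ZEB2 reads as a percentage of the reads of ZEB1 plus ZEB2 (vertical axis, 0 to 100%) for each of the 11 libraries, with 95% exact (Clopper-Pearson) binomial intervals that cover counting error only. The SPARK-ON libraries lie between 38.5% and 43.7% and the control libraries between 57.5% and 61.7%, at either treatment.

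SOX9 (ENSG00000125398, chr17:72121020-72126420, plus strand) had the largest difference between the lines among the 8 tested genes. It was at 48.8, 50.1 and 52.0 CPM in SPARK-ON DMSO libraries and at 58.9, 57.7 and 59.1 CPM in SPARK-ON lenalidomide libraries. In control cells it was at 339, 362 and 378 CPM with DMSO and at 369 and 329 CPM with lenalidomide. No SPARK-ON library came near any control library. The log2 change between the lines was -2.84 in DMSO (SE 0.08, edgeR adjusted p = 4.43e-15) and -2.58 under lenalidomide (SE 0.08, adjusted p = 5.73e-14), or 7.14-fold and 5.96-fold lower. Of all tested genes, 4.75% changed at least as far in either direction in DMSO. SOX9-AS1, an RNA from the opposite strand near SOX9, was also called lower in DMSO (edgeR adjusted p = 0.00184), at 0.120 to 0.153 CPM, no more than 3 reads per library, against 0.476 to 1.68 CPM. It was not called under lenalidomide, at means of 0.428 and 1.09 CPM (edgeR adjusted p = 0.0831).

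CD44 (ENSG00000026508, chr11:35138870-35232402, plus strand) was read at 511, 505 and 484 CPM in SPARK-ON DMSO libraries and at 1197, 1192 and 1167 CPM in control DMSO libraries. With lenalidomide it was at 516, 534 and 560 CPM in SPARK-ON cells and at 1161 and 1110 CPM in control cells. The 2 lines formed separate and narrow ranges. The log2 change between the lines was -1.24 in DMSO (SE 0.06, edgeR adjusted p = 1.14e-11) and -1.08 under lenalidomide (SE 0.07, adjusted p = 3.58e-10).

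VIM (ENSG00000026025, chr10:17228259-17237593, plus strand) was at 535, 501 and 527 CPM in SPARK-ON DMSO libraries and at 1355, 1083 and 1182 CPM in control DMSO libraries. With lenalidomide it was at 517, 533 and 576 CPM in SPARK-ON cells and at 1257 and 1361 CPM in control cells. The control libraries varied more than the SPARK-ON libraries, but the ranges of the lines did not overlap. The log2 change between the lines was -1.21 in DMSO (SE 0.08, edgeR adjusted p = 6.06e-10) and -1.27 under lenalidomide (SE 0.09, adjusted p = 1.39e-09). VIM had the highest level of the 10 genes per kilobase of exon in both lines.

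Antisense genes share exon bases with 5 of the 10 genes, and whether the counting used strand was not stated, so that reads from the shared bases cannot be assigned. The counts of these partners were small: 25 to 74 reads per library for ZEB1-AS1, 8 to 49 for VIM-AS1, 1 to 15 for CD44-AS1, 0 to 9 for AC003986.2 at TWIST1 and 0 for ZEB2-AS1.

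To compare levels between genes, CPM were divided by the kilobases of all annotated exons of each gene (GENCODE 29). In SPARK-ON DMSO cells VIM came first at 101 ± 3.5 CPM per kb and CD44 second at 50.0 ± 1.4 CPM per kb (SD, n = 3). TWIST1 followed at 14.4 ± 1.0, SOX9 at 12.8 ± 0.40, ZEB1 at 4.15 ± 0.32, PRRX1 at 3.69 ± 0.11, SNAI2 at 2.69 ± 0.013 and ZEB2 at 0.972 ± 0.095 CPM per kb. In control DMSO cells SOX9 stood at 91.4 ± 4.9 CPM per kb, behind VIM at 234 ± 27 and CD44 at 118 ± 1.6, and ahead of TWIST1 at 16.0 ± 3.3 CPM per kb. By this measure SOX9 was below TWIST1 by a narrow margin in SPARK-ON DMSO cells and well above it in control DMSO cells. That order depends on the annotated exon lengths, 2033 bases for TWIST1 and 3935 for SOX9. PRRX1 at 4.46 ± 0.89 and ZEB1 at 4.33 ± 0.51 CPM per kb did not differ beyond their spread in control DMSO cells, nor did SNAI2 at 2.57 ± 0.26 and ZEB2 at 2.22 ± 0.44 CPM per kb. ZEB2 has 25058 bases of annotated exon, the most of the 10, and its level per kb is understated where transcripts use fewer of them.

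**Figure D3:**
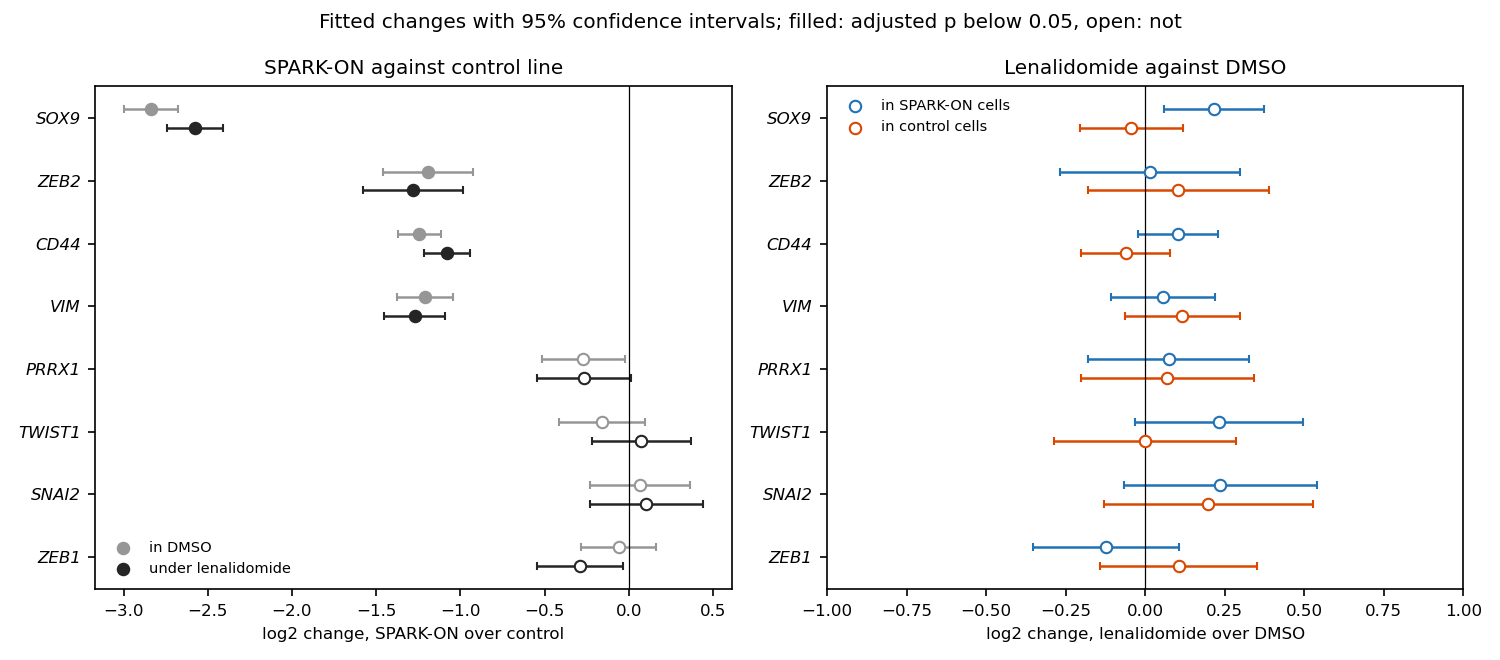
Fitted log2 changes (horizontal axes) of the 8 tested genes with 95% confidence intervals: SPARK-ON over control on the left, in DMSO (grey) and under lenalidomide (black), and lenalidomide over DMSO on the right, in SPARK-ON cells (blue) and control cells (orange). Filled points passed an adjusted p of 0.05: SOX9, ZEB2, CD44 and VIM on the left, and no gene on the right, where all changes lie between -0.12 and 0.24.

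None of the 8 tested genes was called with lenalidomide in either line. In SPARK-ON cells 0 of 8 were called, beside 0.0685% of all tested genes (11 of 16056). In control cells 0 of 8 were called, beside 0.0436% of all (7 genes). The difference between the lines in the response was called for 0 of 8 and for 0% of all genes (0 of 16056 by edgeR, with 669 at an unadjusted p under 0.05, and 3 by DESeq2). DESeq2 and limma-voom also called 0 of 8 in each of these comparisons. At an unadjusted p under 0.05, all 3 tools listed 1 of 8 in SPARK-ON cells, 0 in control cells and 1 for the difference, SOX9 each time. When the 6 SPARK-ON libraries were fitted alone, 2.6% of all genes were called and again 0 of the 8. When the 5 control libraries were fitted alone, 0% of all genes were called (0 of 14666 by edgeR, with 295 at an unadjusted p under 0.05).

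SOX9 had the smallest p of the 8 genes in SPARK-ON cells. All 3 lenalidomide libraries were above all 3 DMSO libraries, with means of 58.6 ± 0.78 and 50.3 ± 1.6 CPM (SD, n = 3). The same separation was seen for TWIST1, SNAI2 and CD44, and its share over all tested genes was not counted. The log2 change was 0.22 (95% interval 0.06 to 0.37, edgeR adjusted p = 0.745). In control cells it was -0.04 (-0.21 to 0.12, edgeR adjusted p = 1). The difference between these responses was 0.26 (95% interval 0.03 to 0.49, edgeR adjusted p = 0.99994). Without both libraries that stood apart the change in SPARK-ON cells was 0.21 (edgeR adjusted p = 0.442), and in the fit of the 6 SPARK-ON libraries it was 0.21 (adjusted p = 0.0609).

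The lenalidomide changes of the other genes in SPARK-ON cells ran from -0.12 for ZEB1 to 0.24 for SNAI2. The log2 change was 0.23 for TWIST1 (95% interval -0.03 to 0.50, edgeR adjusted p = 0.945) and 0.07 for PRRX1 (-0.18 to 0.33, adjusted p = 0.996). It was 0.02 for ZEB2 (-0.27 to 0.30, edgeR adjusted p = 0.999) and 0.06 for VIM (-0.11 to 0.22, adjusted p = 0.996). For SNAI2 the interval was -0.07 to 0.54, so that its change could not be told from no change at 3 libraries a group. In control cells the changes ran from -0.06 for CD44 to 0.20 for SNAI2 (-0.13 to 0.53, edgeR adjusted p = 1). Because both treated lines are set against their own DMSO libraries, these 2 comparisons share none.

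Genes around the 10 differed between the lines in both directions. The list counts stand beside 41.6% of all tested genes called in DMSO, 21.1% higher and 20.4% lower. How many of all called genes went the same way under lenalidomide was not counted. Among 15 tested mesenchymal transcription factors, 3 were higher and 8 lower in SPARK-ON cells in DMSO, with a median log2 change of -0.37. FOXF1, a forkhead factor of mesenchyme, was higher by 1.81 (SE 0.12, edgeR adjusted p = 7.25e-10). FOSL2, a subunit of AP-1, was lower by a log2 change of -1.47 (SE 0.07) and WWTR1, the Hippo pathway co-activator TAZ, by -1.42 (SE 0.09). FOXF2 was higher from a low level, at 1.24 CPM against 0.048 CPM. Of the 15, 10 were called the same way under lenalidomide and none in opposite ways.

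The E proteins, partners of TWIST, were lower, while the ID inhibitors were called in both directions. Of 7 tested E proteins and ID inhibitors, 2 were higher and 5 lower in SPARK-ON DMSO cells, with a median log2 change of -0.48, and 6 were called the same way under lenalidomide. The E proteins TCF4, TCF3 and TCF12, which form the DNA-binding dimers of bHLH factors, were lower by log2 changes of -1.59 (SE 0.11), -1.28 (SE 0.07) and -0.58 (SE 0.09). TCF3 was at 124 ± 3.7 CPM in SPARK-ON DMSO libraries against 300 ± 11 CPM in control DMSO libraries (SD, n = 3). ID4, an inhibitor that lacks the DNA-binding part, was higher by 1.43 (SE 0.11, edgeR adjusted p = 3.74e-09). ID2 was also higher, at 61.5 ± 1.2 against 52.5 ± 6.2 CPM. The inhibitors ID1, at 294 ± 9.3 against 347 ± 56 CPM, and ID3, at 41.3 ± 2.1 against 57.6 ± 9.1 CPM, were lower. TWIST1 itself was not called.

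Among 5 tested relatives of SNAI and SOX, 2 were higher and 2 lower. SOX4 was at 36.6 ± 2.8 CPM against 134 ± 8.5 CPM, a log2 change of -1.87 (SE 0.08, edgeR adjusted p = 2.57e-12). SOX5, a partner of SOX9 in cartilage, was lower by a log2 change of -2.06 (SE 0.18). The 2 higher genes, SNAI3 and SOX6, changed by 2.64 and 2.24 from low levels, and the list median was 0.40, the value of SOX10, which was not called; SNAI3 averaged 0.80 and 0.12 CPM.

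Of 20 tested mesenchymal markers and matrix genes, 9 were higher and 7 lower in SPARK-ON DMSO cells, and all 16 were called the same way under lenalidomide. The median log2 change was 0.27. CDH11, a cadherin of mesenchyme, was at 9.20 ± 1.6 CPM against 121 ± 8.2 CPM in control cells (SD, n = 3), a log2 change of -3.71 (SE 0.11, edgeR adjusted p = 1.92e-14). COL1A2, a chain of type I collagen, changed by -3.48 (SE 0.13). POSTN, which encodes periostin, was called lower (edgeR adjusted p = 3.88e-05), but its level of 0 to 0.0660 CPM in SPARK-ON DMSO libraries is under the 3-count limit of 0.153 to 0.198 CPM, so no fold is given. ENG, the TGF-beta co-receptor endoglin, was higher by 4.29 (SE 0.29, edgeR adjusted p = 9.46e-10). CDH2, which encodes N-cadherin, was lower, at 41.9 ± 2.8 against 150 ± 13 CPM. S100A4 was higher, at 32.7 ± 1.9 against 7.04 ± 1.3 CPM, and so was NT5E, at 81.6 ± 7.8 against 31.0 ± 1.8 CPM. These markers were thus called in both directions.

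The ligand side of CD44 differed as well. Of 10 tested hyaluronan and CD44 partners, 4 were higher and 4 lower, and all 8 were called the same way under lenalidomide. The hyaluronan synthase HAS2 was at 0 to 0.600 CPM in SPARK-ON DMSO libraries and at 7.43 to 9.04 CPM in control DMSO libraries, a log2 change of -5.12 (SE 0.45, edgeR adjusted p = 3.73e-08) against a level near the 3-count limit. VCAN, the hyaluronan-binding proteoglycan versican, changed by -2.78 (SE 0.17) and HAS3 by -1.18 (SE 0.17). SPP1, which encodes the CD44 ligand osteopontin, was higher by 1.53 (SE 0.08, edgeR adjusted p = 6.29e-11). The list median was -0.23.

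Of 6 tested intermediate filament and linker genes other than VIM, 2 were higher and 2 lower in DMSO. NES, which encodes nestin, a filament that assembles with vimentin, was at 59.9 ± 1.7 against 352 ± 41 CPM (SD, n = 3), a log2 change of -2.56 (SE 0.09, edgeR adjusted p = 9.49e-14). NEFL, the light neurofilament, changed by -3.01 (SE 0.13). PLEC, whose product plectin links filaments to other structures, was higher by 0.72 (SE 0.15, edgeR adjusted p = 0.000586). The list median was 0.15.

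Notch signalling is tied to the mesenchymal state of neuroblastoma. Of 11 tested pathway genes, 3 were higher and 5 lower in DMSO, and 4 were called the same way under lenalidomide. NOTCH1, a receptor, was at 87.6 ± 1.9 against 209 ± 41 CPM (SD, n = 3), a log2 change of -1.25 (SE 0.11, edgeR adjusted p = 3.74e-08). JAG2, a ligand, was higher by 2.78 (SE 0.24). The co-activator MAML2 changed by -0.99 (SE 0.12), and the list median was -0.11.

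The epithelial markers that were called were higher in SPARK-ON cells. Of 7 tested, 4 were higher and 0 lower in SPARK-ON DMSO cells, with a median log2 change of 2.15, and the 4 were called the same way under lenalidomide. KRT8, a keratin, was at 28.0 ± 4.3 against 2.85 ± 0.13 CPM (SD, n = 3), a log2 change of 3.30 (SE 0.14, edgeR adjusted p = 2.07e-12). CLDN4, a tight junction claudin, was higher by 3.79 (SE 0.32) and KRT18, the keratin that pairs with KRT8, by 0.75 (SE 0.14). The 13 listed markers summed to 59.5 to 64.2 CPM in SPARK-ON DMSO libraries and to 17.9 to 20.5 CPM in control DMSO libraries. CDH1, which encodes E-cadherin, had 1 read in all 11 libraries together. Of 5 tested regulators of the epithelial state, 1 was higher and 0 lower: ELF3, by 1.40 (SE 0.41, edgeR adjusted p = 0.0109). Without control DMSO replicate 3 the change of ELF3 was 1.03 (edgeR adjusted p = 0.0536), and under lenalidomide it was 0.92 (adjusted p = 0.0924), so it was not called there. GRHL3 was called higher under lenalidomide (edgeR adjusted p = 0.0198), at 0.363 to 1.03 CPM against 0 to 0.0532 CPM. Those control levels are under the 3-count limit of 0.160 to 0.190 CPM. The log2 change of GRHL3 was 3.99 with all libraries, 3.28 without control lenalidomide replicate 1 and 6.26 without replicate 2 of that group. With both libraries that stood apart left out, GRHL3 had too few reads to be tested, and ESRP1 was called lower under lenalidomide (edgeR adjusted p = 0.00687). ESRP1 was at 0 to 0.735 CPM in SPARK-ON lenalidomide libraries, and all of those reads came from replicate 3, which was left out. With all libraries ESRP1 was not called under lenalidomide (edgeR adjusted p = 0.165).

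The adrenergic genes that were detected did not move together. Of 7 tested, 4 were higher and 2 lower in SPARK-ON DMSO cells, with a median log2 change of 0.82. CHGB, a granin of secretory vesicles, was at 4.89 ± 1.2 against 0.666 ± 0.37 CPM (SD, n = 3), a log2 change of 2.87 (SE 0.37, edgeR adjusted p = 4.80e-06). GATA2, a sympathetic lineage factor, was higher by 0.82 (SE 0.11), and KLF7 was lower by a log2 change of -0.74 (SE 0.11). Of 7 tested markers of other cell types, 2 were higher and 2 lower, all at low levels.

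**Figure D4:**
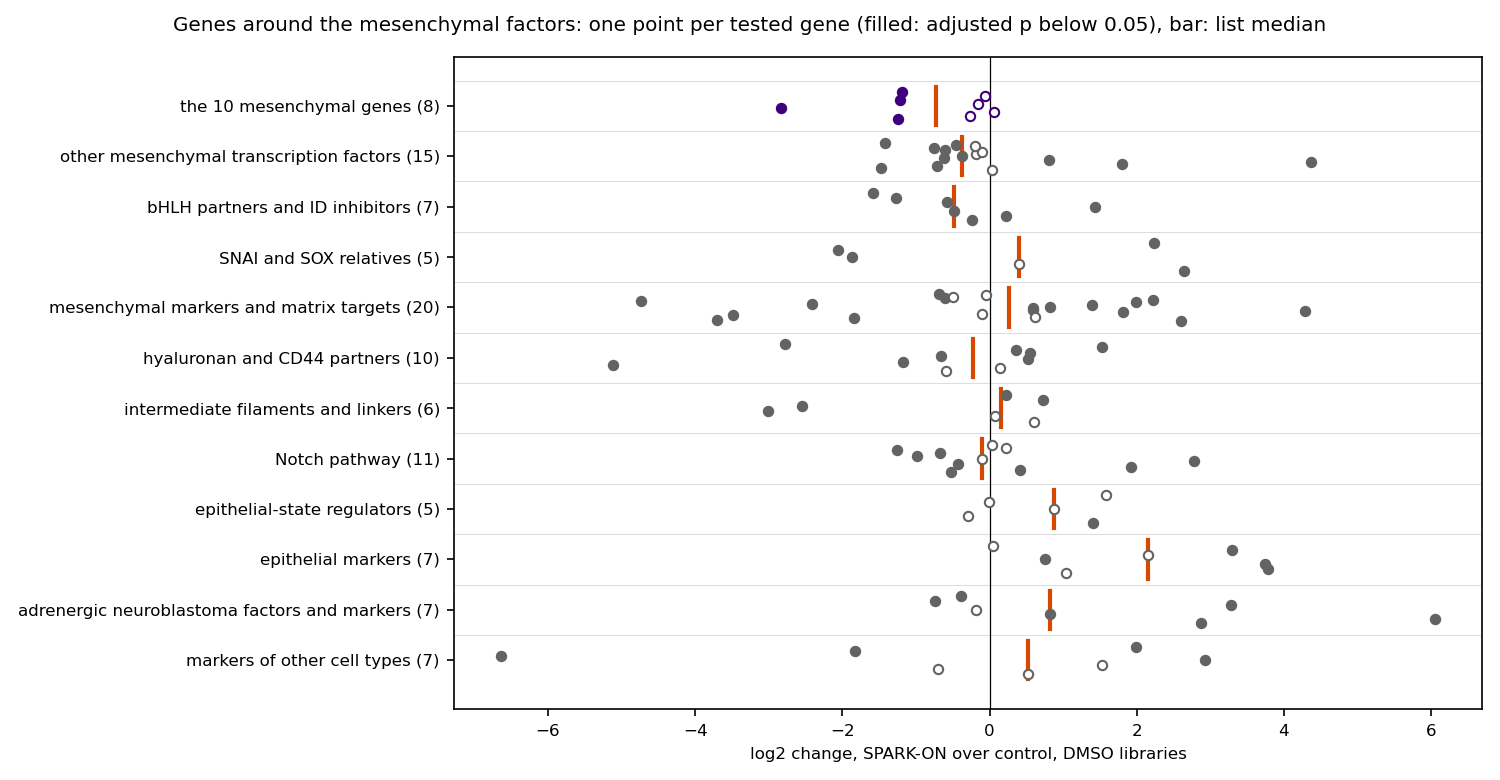
Log2 change of SPARK-ON over control in DMSO (horizontal axis) for every tested gene of the 10 and of 11 surrounding lists, with the number tested in parentheses; filled points passed an adjusted p of 0.05 and orange bars are list medians. The 10 genes hold lower calls only, with a median of -0.73, whereas the mesenchymal markers hold 9 higher and 7 lower calls. The lowest marker point, POSTN, rests on SPARK-ON levels under the 3-count limit.

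With lenalidomide, 1 gene of these lists was called. POSTN was at 7.77 to 8.66 CPM in the control lenalidomide libraries and at 0.717 to 2.02 CPM in the control DMSO libraries, a log2 change of 2.73 (SE 0.38, edgeR adjusted p = 0.0118). In SPARK-ON cells it stayed at or below 0.245 CPM, near the 3-count limit, and the difference between the lines in the response was not called (edgeR adjusted p = 0.99994). The call in control cells did not hold throughout. When the 5 control libraries were fitted alone the log2 change of POSTN was 2.73 (edgeR adjusted p = 0.098), and with the replicate number as a block it was 2.42 (adjusted p = 0.13). Without control lenalidomide replicate 1 it was 2.64 (edgeR adjusted p = 0.196), without replicate 2 of that group 2.79 (adjusted p = 0.131), and without control DMSO replicate 3 it was 2.43 (adjusted p = 0.0569). All other tested genes of the lists were not called in either line. Without both libraries that stood apart, FOSL2 was also called higher with lenalidomide in SPARK-ON cells (log2 change 0.33, edgeR adjusted p = 0.0289).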

How the data were processed

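RNA from SH-EP cells was extracted with a microprep kit and sequenced by a service provider, per the labels. The deposited table holds raw read counts per Ensembl gene on hg38; FastQC, fastp, HTSeq and edgeR are named in the submitters' processing notes, and their versions, the aligner, the annotation and the strand setting are not given in the sources used here. Columns were matched to samples by the description in the labels. The table has 3 columns that match no labelled sample; they were not used, and the 3 labelled baseline SH-EP samples, though planned for comparison, are not analysed here.

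Counts were filtered with filterByExpr (minimum count 10), scaled by TMM and fitted in edgeR 4.0.16 (R 4.3.3) with glmQLFit as 1 layout of the 4 groups over 11 libraries, leaving 7 residual degrees of freedom. Comparisons used glmQLFTest, two-sided, with Benjamini-Hochberg adjustment over 16056 genes and a threshold of 0.05. The procedure was tested on simulated data. Alternatives were RLE or library size scaling, no filter or a minimum count of 30, DESeq2 1.42.0, limma-voom (limma 3.58.1), fits of only the groups compared, the replicate number as a block, and leaving out each library. Positions and exon lengths came from GENCODE 29 on GRCh38, matched by gene identifier without version.

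The 10 genes and the surrounding lists were chosen with earlier results of these data known, so no list is independent evidence. From each list the text names genes past the threshold, largest absolute log2 change first, at most 4 per list and comparison, with a mean of at least 1 CPM over the libraries. FOXF2, SNAI3, SOX6, SOX9-AS1, CDH2, S100A4, NT5E, ID1, ID2, ID3, GRHL3, ESRP1 and genes at or near 0 are outside that rule and were named after their values were seen. Lists are described by counts and medians, with no test of a list. Some genes that these rules or lists cover are not reported here. Intervals and limits for shares and zero counts cover counting error only.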

Additional observations from a re-analysis of the deposited data

Results flagged for a closer look

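With lenalidomide CD44 levels shifted a little in opposite directions in the 2 lines, and neither change was called. How many of all tested genes separated in this way was not counted. All 3 SPARK-ON lenalidomide libraries (516 to 560 CPM) were above all 3 SPARK-ON DMSO libraries (484 to 511 CPM), and both control lenalidomide libraries (1110 to 1161 CPM) were below all 3 control DMSO libraries (1167 to 1197 CPM). The log2 change was 0.10 in SPARK-ON cells (SE 0.06, edgeR adjusted p = 0.964) and -0.06 in control cells (SE 0.07, adjusted p = 1). The difference of the responses was 0.16 (95% interval -0.02 to 0.35, edgeR adjusted p = 0.99994), so it did not pass the threshold. The cause was not tested.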

How the results depend on the processing

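The number of genes called lower between the lines was 4 or 5 under all alternatives run, in DMSO and under lenalidomide, and the number called with lenalidomide, or for the difference between the lines, was 0 under all of them. The genes tested were 8, or 9 with SNAI1 where no filter was used or a control lenalidomide library was left out. Of the log2 changes recomputed for the 8 genes, 611 kept their side of the threshold and 5 passed it newly; no called gene changed direction or lost its call. The 5 were PRRX1 (without control DMSO replicate 1, and in both line comparisons without both libraries that stood apart) and ZEB1, with the values given above. Leaving out the 2 libraries together was chosen after seeing the data. With the replicate number of the labels as a replicate block, 4 genes were called lower in DMSO and 4 under lenalidomide, and 0 in the lenalidomide comparisons. The numbers did not pair the samples: the deviations of same-numbered SPARK-ON libraries from their group means correlated at -0.003, 0.011 and 0.015. In control cells the same-numbered libraries correlated at -0.182 and -0.133. That group of lenalidomide libraries holds 2, so their deviations from the group mean are mirror images. Each correlation with one of them recurs with the opposite sign for the other, and no better pairing can be read from these values. Among genes that were not called, small changes switched sign in up to 14 of 152 recomputed values for the difference between the lines. Without both libraries that stood apart, the list counts moved by at most 3 genes in any direction. Depth limits SNAI1 and TWIST2, and 2 libraries of lenalidomide-treated control cells limit the precision of that group.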

Other observations

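The genes whose levels followed those of the tested genes most closely over the 11 libraries were found by Pearson's r of log2 CPM among 10637 genes with a mean of at least 5 CPM. These values are descriptive, since all genes share the libraries and the difference between the lines. For SOX9 the closest were PMEPA1 (r = 0.999), IGFBP5 (r = 0.998) and RBM24 (r = 0.998). For CD44 they were PHLDA1 (r = 0.999), TNFRSF19 (r = 0.999) and NEDD9 (r = 0.998). For VIM they were SNX7 (r = 0.995), CNN3 (r = 0.994) and MARCKS (r = 0.993). PRRX1, which did not separate the lines, had GOLT1B (r = 0.946) and FAM199X (r = 0.935) among its closest. For TWIST1 the closest were HIBADH (r = 0.910), SPEN-AS1 (r = 0.886) and BORCS7 (r = 0.872).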
